A study of Mus musculus with 17 samples.

Results

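RUNX1 binding was compared between uninduced 416B cells carrying the CBFB-MYH11 construct (CM -Dox) and uninduced 416B cells carrying the control construct (Control -Dox). Both groups held 2 libraries, so 4 of the 16 peak lists of the series set the comparison. 416B cells are a line of mouse myeloid progenitors. All cells also carried a plasmid for the tetracycline silencer tTS, the transactivator rtTA and blasticidin resistance, per the labels' protocols. CM cells carried a cDNA of the Cbfb-Myh11 type A fusion joined to mCherry under a tetracycline-responsive element, and control cells carried that plasmid without the fusion. Single mCherry-negative cells were sorted and clones were picked after testing induction, so each construct is represented by clonal cultures, and the construct and the clone cannot be told apart. Neither group received doxycycline. The comparison therefore asks whether RUNX1 sites differed before induction, through a clone difference or through fusion made without doxycycline. The other 12 lists served as separate readouts: RUNX1 in CM +Dox and Control +Dox cells, given doxycycline at 1 ug/ml for 24 hours, and CHD7 in all 4 conditions, each with 2 libraries.

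RUNX1 is the DNA-binding subunit of core binding factor, and its partner CBFB has no DNA contact of its own but strengthens RUNX1 binding. RUNX1 binds enhancers and promoters of blood cell genes and is needed for blood stem cells to form. The fusion, made by an inversion of chromosome 16 in human acute myeloid leukaemia, keeps the part of CBFB that holds RUNX1. CHD7 is a remodeller that moves nucleosomes with energy from ATP.

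Peaks of the 4 lists that overlapped by 1 bp or more were merged into 19716 sites. A RUNX1 library called a site when it had a peak of score 9 or more there, the score being the −log10 of the peak's p-value as the authors deposited it. A CHD7 library called a site with any peak of its deposited list, whose p-value threshold was looser, with scores from about 2. Sites called in both CM -Dox and neither Control -Dox library are named CM-only, the reverse Control-only, and sites called in all 4 libraries shared. The lists held 13399 and 16163 peaks at this score in CM -Dox replicates 1 and 2, against 14010 and 13550 in Control -Dox replicates 1 and 2. Peak numbers had a log2 difference of 0.10 (exact permutation test, two-sided, p = 1.00). That was less than the SD of the CM -Dox replicates, 0.19, but more than that of the Control -Dox replicates, 0.03. With 2 libraries against 2, no p below 0.33 is possible. Read depth behind the lists is unknown, so a score or a peak number is not read as an amount of binding. The peak names inside the list labelled Control -Dox replicate 1 carry a +Dox tag, against the label, and the label was kept.

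Promoter sequences show 4 of the differing sites at base level. RUNX1 recognises the core motifs TGTGGT and TGCGGT, which were searched on both strands and are in capitals where they matched. The windows run from 250 bases before to 50 bases after a gene's start in RefSeq (GRCm38.p6, the assembly mm10 denotes), on the gene's strand, 5′ to 3′. These 4 were chosen after their values were seen, as promoters of known genes with a motif inside the called site. Tigit, an inhibitory receptor of T and NK cells, lies at chr16:43664135-43664434 on the minus strand, and Nkap, an activator of NF-kappaB signalling, at chrX:37126513-37126812 on the plus strand. Both lay on CM-only sites. Gzmb, a serine protease of cytotoxic granules, lies at chr14:56262285-56262584, and Cenpj, a centriole assembly protein, at chr14:56571797-56572096, both on the minus strand. Both lay on Control-only sites of chromosome 14 beyond 50 Mb, where 119 of 393 sites were Control-only.
Tigit: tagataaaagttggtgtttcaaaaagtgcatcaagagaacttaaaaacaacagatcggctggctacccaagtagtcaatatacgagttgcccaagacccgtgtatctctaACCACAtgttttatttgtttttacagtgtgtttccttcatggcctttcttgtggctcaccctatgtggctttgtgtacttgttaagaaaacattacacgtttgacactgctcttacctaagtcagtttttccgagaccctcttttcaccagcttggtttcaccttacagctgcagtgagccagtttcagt
Nkap: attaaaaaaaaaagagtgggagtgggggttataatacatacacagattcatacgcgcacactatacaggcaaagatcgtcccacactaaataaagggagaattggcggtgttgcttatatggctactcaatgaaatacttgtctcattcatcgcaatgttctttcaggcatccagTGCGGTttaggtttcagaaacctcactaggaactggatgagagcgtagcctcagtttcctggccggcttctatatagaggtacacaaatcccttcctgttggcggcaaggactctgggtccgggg
Gzmb: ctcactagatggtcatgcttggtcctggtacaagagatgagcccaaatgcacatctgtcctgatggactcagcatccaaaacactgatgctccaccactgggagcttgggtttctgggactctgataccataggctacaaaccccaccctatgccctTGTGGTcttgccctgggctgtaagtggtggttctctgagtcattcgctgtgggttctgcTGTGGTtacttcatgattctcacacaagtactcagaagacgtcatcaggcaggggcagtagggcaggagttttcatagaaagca
Cenpj: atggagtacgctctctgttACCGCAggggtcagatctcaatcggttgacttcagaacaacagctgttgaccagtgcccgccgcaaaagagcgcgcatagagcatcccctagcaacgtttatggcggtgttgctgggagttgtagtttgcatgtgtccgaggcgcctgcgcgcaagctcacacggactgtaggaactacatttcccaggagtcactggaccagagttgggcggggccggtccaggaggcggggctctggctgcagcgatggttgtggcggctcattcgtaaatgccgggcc

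The Tigit site scored 40.4 and 55.4 in the CM -Dox libraries and had no peak in either Control -Dox library. It was called for CHD7 in 3 of 4 CM libraries and 0 of 4 Control libraries. The Nkap site scored 38.7 and 25.4 in CM -Dox and had no peak in Control -Dox, while CHD7 was called there in 4 of 4 CM and 4 of 4 Control libraries. No RUNX1 library with doxycycline, CM or Control, called the Tigit or the Nkap site. The Gzmb site had no peak in CM -Dox and scored 43.7 and 30.6 in Control -Dox, with both Control +Dox libraries calling RUNX1 there as well. The Cenpj site had no peak in CM -Dox and scored 32.9 and 25.2 in Control -Dox, and both Control +Dox libraries called it too. CHD7 was called in none of the 8 libraries at the Gzmb and Cenpj sites. Of all 32851 promoter windows, 22.4% held at least 1 of the motifs. The share was 25.9% of the 116 windows on CM-only sites, 26.8% of the 123 on Control-only sites and 29.6% of the 3273 on shared sites. TGCGGT was in 6.90% of CM-only (8 windows), 11.4% of Control-only and 15.7% of shared windows, against 6.45% of all windows. TGTGGT was in 19% of CM-only, 16.3% of Control-only and 15.6% of shared windows, against 16.8% of all windows. These shares were not tested.

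Sites called by all 4 uninduced RUNX1 libraries outnumbered those called on one side only. There were 1190 CM-only sites, 6.04% of all sites, and 776 Control-only sites, 3.94%, a ratio of 1.53. Shared sites numbered 9555, or 48.5%. CM-only sites were 9.66% of the 12325 sites called in both CM -Dox libraries, and Control-only sites were 6.85% of the 11324 called in both Control -Dox libraries. Disagreement between replicates was larger than this: 4718 sites were called in 1 CM -Dox library alone of the 2, and 4754 in 1 Control -Dox library alone. These counts define the site sets and carry no test. They also depend on each list, since leaving 1 out lets a single library stand for its side. There were then 3187 CM-only and 999 Control-only sites without CM -Dox replicate 1, and 1610 CM-only and 1553 Control-only sites without CM -Dox replicate 2. Without Control -Dox replicate 1 there were 2176 CM-only and 1692 Control-only sites, and without Control -Dox replicate 2 there were 1786 and 1718. Setting CM -Dox against all 4 Control lists, with and without doxycycline, gave 929 CM-only and 423 Control-only sites. With each RUNX1 list cut to its 13399 highest-scoring peaks, there were 1015 CM-only and 933 Control-only sites. The excess of CM-only sites was thus small at equal list length, and without CM -Dox replicate 2 or Control -Dox replicate 2. The ratio of 1.53 therefore depended on list length.

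**Figure D1:**
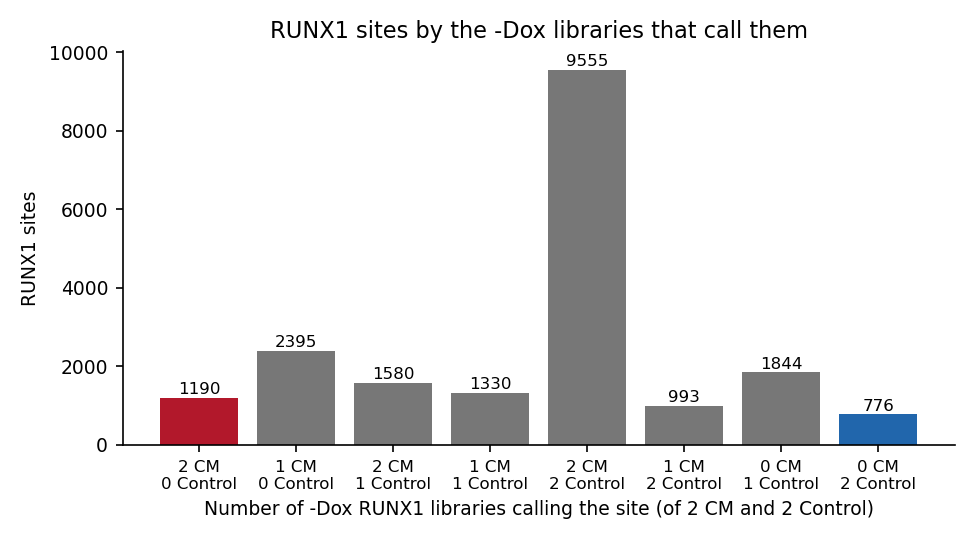
Number of RUNX1 sites (y axis) by how many of the 2 CM -Dox and 2 Control -Dox RUNX1 libraries called them (x axis), with CM-only in red and Control-only in blue. The 9555 sites called in all 4 libraries outnumber the 1190 CM-only and 776 Control-only sites.

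Most differing sites were not at the edge of the threshold on the side that called them. Both scores were 18 or more at 844 CM-only and 401 Control-only sites. The lowest scores just inside were 9.09, 9.09 and 9.25 for CM-only sites and 9.08, 9.09 and 9.14 for Control-only sites. Only the list of Control -Dox replicate 2 also held peaks under 9, and 14 CM-only sites had such a peak there, the nearest at 8.72, 8.72 and 8.59. Within their own lists the differing peaks still ranked below the shared ones. The median percentile of the score, 100 being the highest, was 28.0 and 41.0 at CM-only sites in the CM -Dox libraries, against 62.6 and 68.2 at shared sites in those libraries. In the Control -Dox libraries it was 29.9 and 36.1 at Control-only sites, against 64.7 and 63.0 at shared sites.

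Differing sites lay away from gene starts and ends more often than shared sites did. Within 1 kb of either end of a protein-coding gene lay 11.6% of CM-only sites (Wilson 95% interval 9.90 to 13.5), 18.9% of Control-only sites (16.3 to 21.9) and 31.2% of shared sites (30.3 to 32.2). Such intervals cover counting error only. Promoter windows were touched by 93 CM-only sites (7.82%), 107 Control-only sites (13.8%) and 2470 shared sites (25.9%). Inside genes lay 54.4% of CM-only, 58.9% of Control-only and 66.1% of shared sites. Median width was 291 bp for CM-only and 289 bp for Control-only sites, against 407 bp for shared sites. A shared site spans merged peaks of every uninduced RUNX1 list, so merging alone widens it, and its width cannot be compared with the differing sites. Median widths of single peaks in these lists were 309 to 318 bp, above both differing medians. Of all sites, with a median width of 333 bp, 29.2% lay within 1 kb of a gene end. Wider sites reach gene ends and promoter windows more easily, and the effect of width on these shares was not tested. Between whole lists of the constructs, 29.7% ± 1.66 of CM -Dox peaks and 31.4% ± 5.51 of Control -Dox peaks lay within 1 kb of a gene end (SD, n = 2 each, exact permutation test, p = 1.00), a difference of -1.67 points that was 2.23 without Control -Dox replicate 1.

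The differing sites were unevenly spread over chromosomes, and chromosomes 14 and 19 stood apart in opposite directions. On chromosome 14, 17 of 631 sites were CM-only (2.69%) and 130 were Control-only (20.6%). On chromosome 19, 156 of 807 sites were CM-only (19.3%) and 9 were Control-only (1.12%). On the other 18 chromosomes CM-only sites made up 3.68% to 7.26% of the sites of a chromosome, and Control-only sites 1.89% to 4.53%. Among the lists that chose the sites, 2.01% and 2.23% of CM -Dox peaks lay on chromosome 14, against 3.55% and 3.54% of Control -Dox peaks in replicates 1 and 2. Together chromosomes 14 and 19 took part of the difference only: 1017 CM-only and 637 Control-only sites lay elsewhere, 5.56% and 3.49% of 18278 sites.

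**Figure D2:**
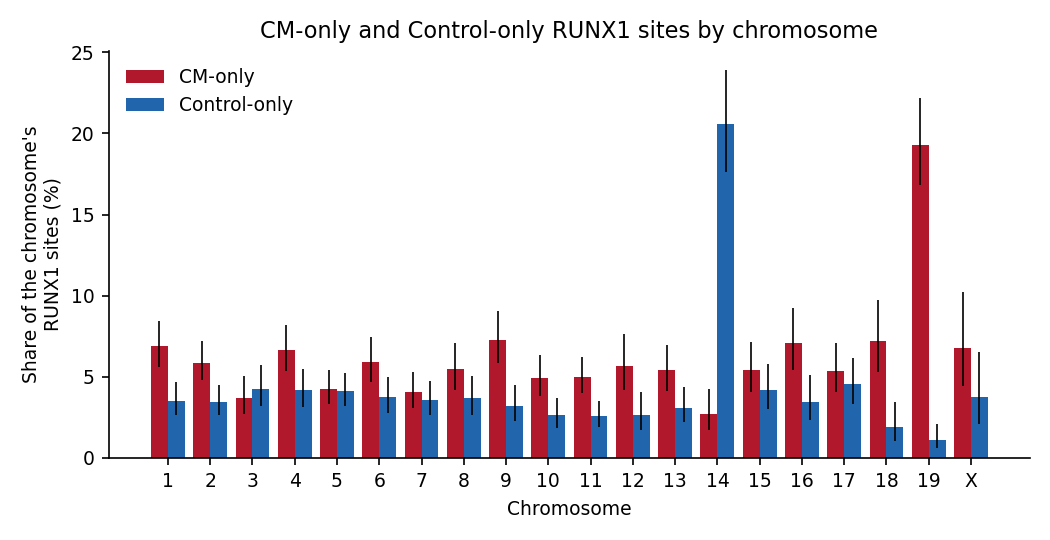
Share of the RUNX1 sites of each chromosome (y axis, %) that were CM-only (red) or Control-only (blue), by chromosome (x axis), with Wilson 95% intervals for counting error. Control-only sites reach 20.6% on chromosome 14 and CM-only sites 19.3% on chromosome 19, while no other bar passes 7.26%.

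The unequal site counts lay mainly in the distal parts of both chromosomes, with boundaries chosen after the counts were seen. On chromosome 14 beyond 50 Mb, 3 of 393 sites were CM-only (0.763%) and 119 were Control-only (30.3%), while 94 were shared. Before 50 Mb, 14 of 238 sites were CM-only (5.88%) and 11 were Control-only (4.62%). On chromosome 19 beyond 10 Mb, 145 of 633 sites were CM-only (22.9%) and 5 were Control-only (0.790%), while 239 were shared. Before 10 Mb, 11 of 174 were CM-only (6.32%) and 4 were Control-only (2.30%). Shared sites moved the same way in rank. Among all 9555 shared sites, those on chromosome 14 had a median score percentile of 49.1 and 49.5 in CM -Dox, against 63.8 and 65.4 in Control -Dox. Those on chromosome 19 had 65.3 and 63.2 in CM -Dox, against 41.3 and 44.6 in Control -Dox. On each other chromosome this median lay between 45 and 59.7 in CM -Dox, and between 46.0 and 57.4 in Control -Dox.

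Peaks that did not choose the sites showed the same pattern by construct, with or without doxycycline. In RUNX1 lists after doxycycline, 5.10% and 4.96% of CM +Dox peaks lay on chromosome 19, against 2.83% and 3.10% of Control +Dox peaks. On chromosome 14 lay 2.09% and 2.10% of CM +Dox peaks, against 3.58% and 3.55% of Control +Dox peaks. CHD7 peaks on chromosome 19 made up 8.05% ± 0.198 of CM lists and 2.55% ± 0.304 of Control lists (SD, n = 4 each). On chromosome 14 they made up 1.5% ± 0.117 of CM lists and 4.14% ± 0.114 of Control lists. The CM and Control libraries did not overlap on either chromosome, and the exact permutation p was 0.0286 for each, the smallest that 4 against 4 libraries allow. Adjusted over 20 chromosomes it was 0.143 and did not pass 0.05. CHD7 shares failed to overlap on 4 of the 20 chromosomes (20.0%): 2, 3, 14 and 19. On all chromosomes other than 14 and 19 the ratio of mean shares, CM over Control, lay between 0.901 and 1.26, against 0.362 on chromosome 14 and 3.16 on chromosome 19.

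CHD7 peaks also differed most in the distal parts, and on chromosome 19 they differed in the proximal part too. Per 10000 CHD7 peaks, 33.9 ± 6.74 in CM and 286 ± 11.6 in Control libraries lay on chromosome 14 beyond 50 Mb, a ratio of 0.119, against a ratio of 0.907 before 50 Mb. On chromosome 19 beyond 10 Mb the values were 734 ± 18 in CM and 208 ± 22.9 in Control libraries, a ratio of 3.53 (SD, n = 4 each). Before 10 Mb the CHD7 values were 61.6 to 84.3 in CM and 39.8 to 58.6 in Control libraries, a ratio of 1.51 with no overlap. RUNX1 after doxycycline gave 74.2 and 75.6 per 10000 peaks as the lowest and highest in CM +Dox on distal chromosome 14, against 226 and 231 in Control +Dox. On distal chromosome 19 it gave 381 and 387 in CM +Dox, against 204 and 228 in Control +Dox. Before 10 Mb of chromosome 19 it gave 115 and 123 in CM +Dox, against 79.8 and 81.8 in Control +Dox. Whether the DNA content of these regions differed between the clones was not tested.

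**Figure D3:**
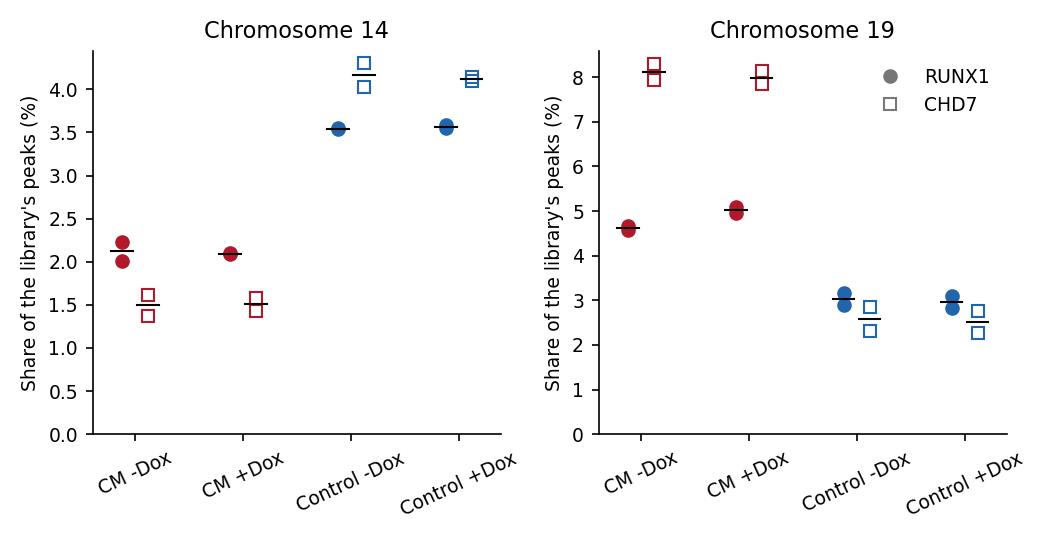
Share of each library's peaks on chromosome 14 (left) and chromosome 19 (right), in percent, for RUNX1 (filled circles) and CHD7 (open squares). Red marks CM and blue Control, each point is 1 library and black lines are means of 2. CM libraries lie below Control libraries on chromosome 14 and above them on chromosome 19 for both antibodies.

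RUNX1 after doxycycline, measured in libraries that did not choose the sites, was called at most Control-only sites in Control cells but at a minority of CM-only sites in CM cells. At Control-only sites RUNX1 was called at 9.92% and 13.4% of sites in CM +Dox, against 68.4% and 71.5% in Control +Dox. At CM-only sites it was called at 14.5% and 28.6% of sites in CM +Dox, against 13.9% and 11.3% in Control +Dox. Shared sites were called at 56.9% and 66.8% in CM +Dox, against 93.6% and 93.1% in Control +Dox. The 2 CM +Dox lists were the shortest RUNX1 lists, with 7939 and 9710 peaks at a score of 9 or more. The log2 odds ratio of a call at CM-only against Control-only sites averaged 0.99 ± 0.53 in CM +Dox and -4.01 ± 0.39 in Control +Dox (SD, n = 2 each). The difference of 5.01 had an exact permutation p of 0.33, the smallest possible, and 0.50 after adjustment over 6 tests. Without Control -Dox replicate 1, the list with the mismatched tag, the sites chosen gave a difference of 3.46, and without Control -Dox replicate 2 it was 2.33.

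CHD7, detected with a separate antibody, was called more often in CM libraries at CM-only sites and more often in Control libraries at Control-only sites. At CM-only sites CHD7 was called at 38.2% and 57.4% in CM -Dox and 30.7% and 41.9% in CM +Dox, against 16.7% and 21.3% in Control -Dox and 18.2% and 21.5% in Control +Dox. All 4 CM values lay above all 4 Control values. At Control-only sites CHD7 was called at 13.1% and 23.1% in CM -Dox and 14.9% and 22.4% in CM +Dox, against 29.5% and 37.9% in Control -Dox and 30.7% and 32.5% in Control +Dox. Here all 4 CM values lay below all 4 Control values. Shared sites did not separate the constructs, with 53.4% ± 11 in CM and 53.3% ± 6.60 in Control libraries (SD, n = 4 each).

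The difference in the CHD7 share was 22.6 percentage points at CM-only sites and -14.2 at Control-only sites. Each had an exact permutation p of 0.0286, the smallest that 4 against 4 allow, and 0.0571 after Benjamini-Hochberg adjustment over the 6 tests. The CHD7 lists held 16323 to 37698 peaks, and such shares move with list length. With each CHD7 list cut to 16323 peaks, the differences were 16.6 points at CM-only and -14.2 at Control-only sites. The log2 odds ratio of a CHD7 call at CM-only against Control-only sites averaged 1.71 ± 0.45 in CM and -1.01 ± 0.15 in Control libraries. The difference was 2.72, with the same p and adjusted p, so no test passed 0.05 after adjustment. With chromosomes 14 and 19 left out, a step added after seeing the data, the differences were 19.7 and -9.4 points and 2.16 on the log2 scale. Without Control -Dox RUNX1 replicate 1 the log2 difference was 1.76, and that at CM-only sites was 16.2 points. The log2 difference between constructs was 3.21 without doxycycline and 2.22 with it. The change of 0.99 had an exact permutation p of 0.0556, the smallest its 36 splits allow. It was not among the 6 adjusted tests. The Control-only share depended on single RUNX1 lists: its difference was -9.6 without CM -Dox replicate 2 (p = 0.0857, exact permutation), -9.0 without Control -Dox replicate 1 (p = 0.0857) and -7.2 without Control -Dox replicate 2 (p = 0.200). At CM-only sites, leaving out any 1 Control CHD7 library gave 21.7 to 23.3 points with an exact permutation p of 0.0571.

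**Figure D4:**
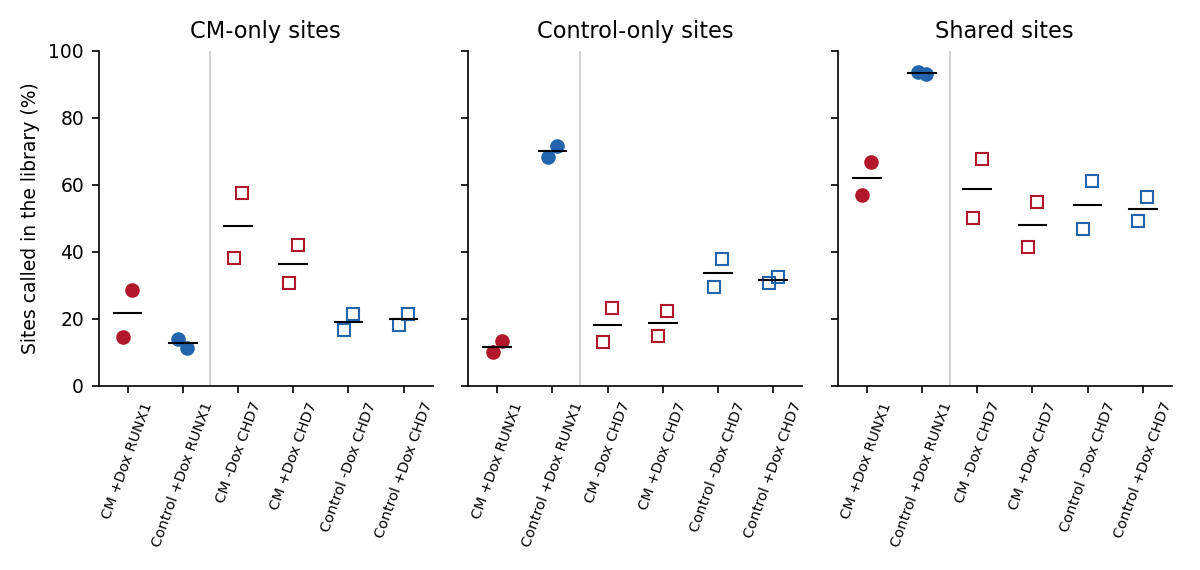
Percent of CM-only (left), Control-only (middle) and shared sites (right) called in each +Dox RUNX1 library (filled circles) and each CHD7 library (open squares), with CM in red and Control in blue; black lines are means of 2 libraries. CHD7 calls at CM-only sites lie higher in all 4 CM libraries, calls at Control-only sites lie higher in all 4 Control libraries, and at shared sites the constructs overlap.

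The 10 highest-ranked CM-only sites all lay outside promoter windows, and 7 of them were called in neither CM +Dox library. The first, at chr14:45011268-45011650, lay 7.45 kb from Ptger2, a receptor for prostaglandin E2, and scored 140 and 121 in CM -Dox with no peak in Control -Dox. It was on the proximal part of chromosome 14, and no RUNX1 library with doxycycline called it. The site nearest Tnc, which encodes the matrix protein tenascin C, lay 39.0 kb away at chr4:64086021-64086413 and scored 99.2 and 158 in CM -Dox, with no RUNX1 peak in any other condition. The others were nearest to Sdhaf2, Myof, Dipk2b, Gnao1, Arel1, Rftn1, Ablim1 and Zeb2, and 3 of the 10 were on chromosome 19.

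Zeb2 encodes a zinc-finger repressor of blood and neural lineages, and the CM-only site with Zeb2 as nearest gene lay 1253 kb from it at chr2:46370889-46371377. It scored 72.8 and 90.3 in CM -Dox and 17.9 and 38.9 in CM +Dox, with no peak in any Control RUNX1 list. CHD7 was called there in 4 of 4 CM and 0 of 4 Control libraries. Of these 10 sites it was the only one called in both CM +Dox libraries. In contrast, the site nearest Dipk2b, on chromosome X, scored 81.5 and 97.4 in CM -Dox and had no peak in CM +Dox or Control -Dox, yet scored 21.1 and 14.2 in Control +Dox. The site near Sdhaf2 scored 120 and 114 in CM -Dox, and it was called in 1 CM +Dox library with a score of 26.5 and in 1 Control +Dox library with a score of 18.5.

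The 10 highest-ranked Control-only sites behaved more uniformly. All were called in both Control +Dox libraries, and none in a CM +Dox RUNX1 or CM CHD7 library. Their absence from CM -Dox was set by the rule. The short CM +Dox lists called only 56.9% and 66.8% of shared sites, against 93.6% and 93.1% in Control +Dox. This limits the contrast with the CM-only sites. The highest of the 10 Control-only sites, at chr9:8692853-8693804, lay 12.1 kb from Trpc6, a calcium-permeable cation channel. It had no peak in CM -Dox or CM +Dox and scored 326 and 267 in Control -Dox and 451.8 and 258.7 in Control +Dox, a mean percentile of 99.9 in the Control -Dox lists. CHD7 was called there in 0 of 4 CM and 4 of 4 Control libraries. A second site nearest Trpc6, 55.6 kb from it at chr9:8487833-8488276, had no CM -Dox peak and scored 165 and 151 in Control -Dox.

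Ednrb, the endothelin receptor type B gene of distal chromosome 14, was nearest to the third, which had no CM -Dox peak and scored 114 and 116 in Control -Dox. It was called for CHD7 in 0 of 4 CM and 4 of 4 Control libraries. Inside Gpd2, the mitochondrial glycerol-3-phosphate dehydrogenase gene, a site had no CM -Dox peak and scored 120 and 79.9 in Control -Dox. The remaining sites lay inside Mcf2l, Dcc, Pard3 and Bpifc, and 64.9 kb from Sema6d and 11.7 kb from Scara3 as nearest genes, and 2 of the 10 were on chromosome 14. Whether a site lay in an exon or an intron was not resolved.

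Of 21887 protein-coding genes, 773 (3.53%) had a CM-only site in the gene body or within 5 kb, 569 (2.60%) had a Control-only site, and 33 had both. A shared site was also present at 409 of the CM-only genes (52.9%) and at 267 of the Control-only genes (46.9%). Of all protein-coding genes, 6094 (27.8%) had a shared site. No protein-coding gene lay within 5 kb of 426 CM-only sites (35.8%) and 260 Control-only sites (33.5%).

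At least 3 CM-only sites were found at 13 genes and at least 3 Control-only sites at 7 genes. Distal chromosome 19 held 4 of those 13, Sgms1, R3hcc1l, Myof and Pik3ap1, and distal chromosome 14 held 5 of the other 7, Elf1, Zfp395, Mbnl2, Enox1 and Stk24. An Elf1 site lay inside the neighbouring gene Sugt1 and a Stk24 site inside Farp1, counted because they were within 5 kb. Myof, which encodes the membrane-repair protein myoferlin, had 5 and 4 RUNX1 peaks in CM -Dox and 1 and 1 in CM +Dox, against none in any of the 4 Control libraries. R3hcc1l had 5 and 5 peaks in CM -Dox, against 1 and 0 in Control -Dox, and 4 of its sites were CM-only neighbours within 49.5 kb. Foxp1, a forkhead repressor used in B cell and monocyte development, had 3 CM-only sites besides 3 shared ones. The CM-only Foxp1 site at chr6:99211733-99212044 scored 47.5 and 54.5 in CM -Dox, and both CM +Dox libraries called it. Nrip1, a nuclear receptor corepressor, had 5 and 8 peaks in CM -Dox, against 2 and 2 in Control -Dox.

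On the Control side Pard3, Zfp395 and Mbnl2 had no RUNX1 peak in CM cells, while Elf1, Enox1, Stk24 and Ppp1r9a had some. Multi-site genes of both sides were chosen for sites missing from the other side's -Dox lists. Low -Dox counts on that other side therefore follow from the choice. Pard3, which encodes a cell polarity scaffold, had no RUNX1 peak in any of the 4 CM libraries, against 4 and 5 in Control -Dox and 3 and 4 in Control +Dox. Zfp395 and Mbnl2, which encodes a regulator of RNA splicing, likewise had none in any CM library, against 3 and 3 in Control -Dox for each. Elf1, an ETS family transcription factor of blood cells, had 2 and 3 peaks in CM -Dox, against 7 and 6 in Control -Dox, and 2 of its sites were shared. Pard3 lies on chromosome 8 and Ppp1r9a on chromosome 6, so these groups were not limited to chromosome 14. Of the 3 Ppp1r9a sites, 2 were near the threshold in Control -Dox, with scores of 11.8 and 10.9 at one and 13.2 and 9.6 at the other. The first of these was also called in both CM +Dox libraries, with scores of 18.6 and 36.3. At the 3 Ppp1r9a sites CHD7 was called in 4 of 4 CM libraries, and at the 4 Pard3 sites in 0 of 4.

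**Figure D5:**
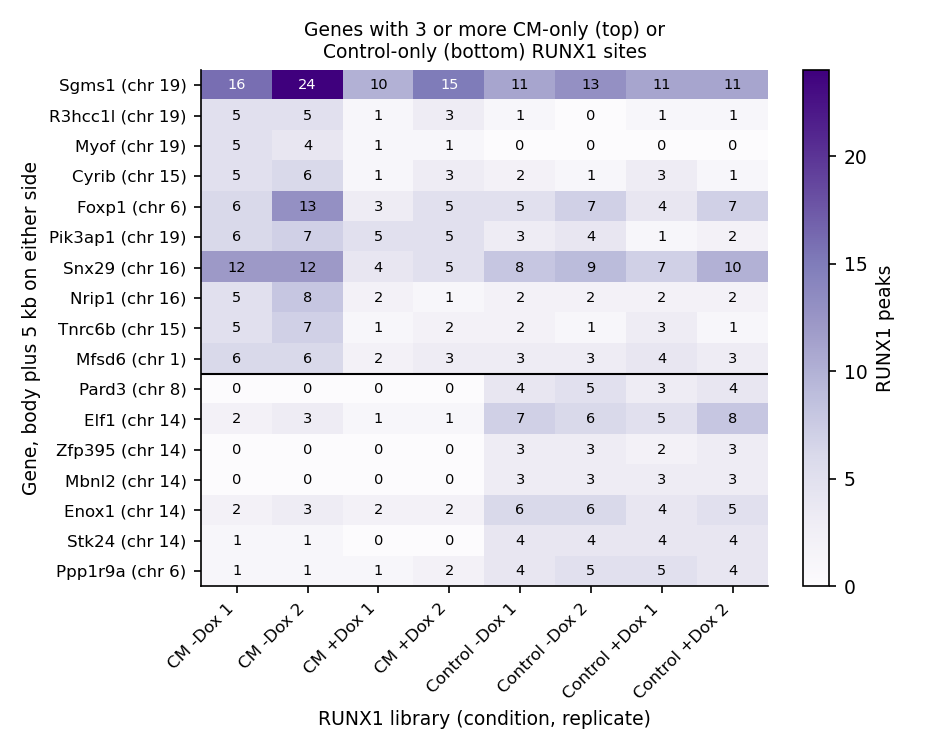
Number of RUNX1 peaks at a score of 9 or more in the gene body or within 5 kb (cell values and shade) for 10 genes with 3 or more CM-only sites and 7 with 3 or more Control-only sites (rows), in the 8 RUNX1 libraries (columns). Pard3, Zfp395 and Mbnl2 have 0 peaks in all 4 CM libraries, and Myof has 0 in all 4 Control libraries.

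Differing sites also followed one another along the chromosome without another site between them. There were 16 stretches of 3 or more neighbouring CM-only sites, of which 4 were on chromosome 19, and 12 of Control-only sites, of which 8 were on chromosome 14. The longest held 4 CM-only and 5 Control-only sites. Stretches took up 49 of the 1190 CM-only and 44 of the 776 Control-only sites. They spanned 1.64 to 1721 kb for CM-only and 21.5 to 904 kb for Control-only sites. Another site of the same set lay within 100 kb of 30.7% of CM-only and 24.6% of Control-only sites. For the far more numerous shared sites this was 82.9%. Whether the stretches exceed what the numbers of sites give was not tested. Outside chromosome 14, Control-only stretches lay at Prickle1 on chromosome 15 with 4 sites over 251 kb, at Trpc6 on chromosome 9 with 3 sites over 206 kb, at Col24a1 on chromosome 3 and at Ppp1r9a on chromosome 6. CM +Dox lists had no RUNX1 peak in the Prickle1, Trpc6 and Col24a1 stretches. In the CM -Dox lists the site rule itself left none there.

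Known blood cell and chromatin genes held differing sites at a few members of each list, mostly 1 site per gene. Over 11 gene lists with 180 genes, 19 genes (10.6%) had a CM-only site and 6 (3.33%) a Control-only site, against 3.53% and 2.60% of all protein-coding genes. The lists were matched neither on gene length nor on how often RUNX1 was called at their genes. Shared sites were at 27.8% of all protein-coding genes. In the lists they ranged from 0 of 12 liver genes to 17 of 20 cell cycle and apoptosis genes. The higher CM-only share of the listed genes was not tested. Distal chromosome 19 held 4 of the 19 genes with a CM-only site. Of 24 haematopoietic transcription factors, 5 had a CM-only site (Runx2, Cbfb, Meis1, Hhex and Etv6), 2 had a Control-only site (Erg and Nfe2) and 19 had a shared site. Of 20 signalling and adhesion genes, 5 had a CM-only site (Tgfbr1, Tgfbr2, Smad7, Jak2 and Cd34) and 0 a Control-only site. Tgfbr1, Tgfbr2 and Smad7 encode both receptor chains and an inhibitor of the TGF-beta pathway.

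Of 15 chromatin remodellers, 4 had a CM-only site (Chd1, Chd7, Smarca2 and Ep400) and 2 a Control-only site (Chd8 and Arid1b). The Chd8 site lay inside the neighbouring gene Supt16, within 5 kb of Chd8. Of 20 cell cycle and apoptosis genes, 3 had a CM-only site (Cdk4, Bcl2l1 and Mcl1) and 1 a Control-only site (Bcl2l1). The Cdk4 site lay inside the neighbouring gene Tspan31, within 5 kb of Cdk4. Of 20 megakaryocyte and mast cell genes, Cpa3 and Ms4a2 had a CM-only site and none had a Control-only site. Of 16 lymphoid genes, Lck had a Control-only site. All 25 myeloid differentiation genes and all 12 erythroid genes lacked CM-only and Control-only sites. Shared sites were at 10 and 2 of them, beside 27.8% of all protein-coding genes. The 16 neural crest and 12 liver genes, lists of other tissues, had no CM-only or Control-only site either. At the shares of all protein-coding genes, lists of these sizes would hold few such genes or none.

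Runx2, a paralogue of Runx1 that directs bone formation, had 9 and 11 peaks in CM -Dox, against 6 and 6 in Control -Dox. Its 3 CM-only sites scored between 16.2 and 31.6 in CM -Dox. Cd34, a surface sialomucin of blood progenitors, had a CM-only site 1.60 kb from the gene that scored 25 and 23.7 in CM -Dox, and both CM +Dox libraries called it too. CHD7 was called at this Cd34 site in 4 of 4 CM and 2 of 4 Control libraries. Cpa3, a carboxypeptidase of mast cell granules, had a CM-only site inside the gene that scored 31.6 and 66.1 in CM -Dox and was called in no RUNX1 library with doxycycline. Erg, an ETS factor of blood stem cells, had a Control-only site in the gene with no CM -Dox peak and scores of 33.5 and 35.4 in Control -Dox, beside 5 shared sites.

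The genes of the fusion and of the antibody targets gave different pictures. Runx1 had 9 and 11 peaks in CM -Dox, against 9 and 10 in Control -Dox, and held 9 shared sites and none that differed. Chd7 had 4 and 4 peaks in CM -Dox, against 3 and 2 in Control -Dox, and 1 CM-only site. Cbfb had 4 and 2 peaks in CM -Dox and 4 and 4 in CM +Dox, against 0 in all 4 Control libraries. A CM-only site inside Cbfb, at chr8:105178487-105178803, scored 27.3 and 21.8 in CM -Dox and 81.9 and 110.2 in CM +Dox, with CHD7 called there in 4 of 4 CM and 0 of 4 Control libraries. The other Cbfb site, 0.0160 kb outside the gene at chr8:105218005-105218298, scored 14.2 and 16.7 in CM -Dox and had no peak in CM +Dox, with CHD7 called in 4 of 4 CM and 4 of 4 Control libraries. Myh11, the smooth muscle myosin gene, had 1 peak in CM -Dox replicate 1, with a score of 17.7, 0 in CM -Dox replicate 2 and 3 in each CM +Dox library, against 0 in all 4 Control libraries. CM cells carry Cbfb and Myh11 sequence in the construct, and whether reads from it contributed to these peaks was not tested.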

How the data were processed

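RUNX1 and CHD7 were measured by ChIP-seq in 416B cells, with chromatin fixed in 1% formaldehyde and fragments of 150 to 400 bp, per the labels' protocols. The submitters' processing notes name mm10, Bowtie2 2.0.6 and MACS2 2.0.10. No source used here gives the background libraries of the calls, and the labelled IgG sample was not analysed here. The authors deposited 1 peak list per library, whose score is the −log10 of the p-value. A p-value minimum of 1e-09 was used in the 4 -Dox and the +Dox RUNX1 lists, and CHD7 lists were used as deposited. Sites, shares, log2 odds ratios (0.5 added to each count) and exact permutation tests over libraries, two-sided and Benjamini-Hochberg adjusted over 6 tests, were computed with Python 3.11.15, numpy 2.4.6 and scipy 1.17.1, and tested on simulated data. Gene positions and promoter sequences came from RefSeq. Distances are to the nearest end of a protein-coding gene.

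Named sites are the 10 of each set with the highest mean percentile. Named genes are up to 10 per set with 3 or more sites, up to 6 per list, and Runx1, Chd7, Cbfb and Myh11; a few others were chosen after their values were seen. The members and the gene lists were chosen with earlier results of these data known. Nothing says that replicates came from separate cultures, so p-values measure only how these libraries spread, possibly for technical reasons. The planned motif count at sites away from promoters needs a genome and was not run. Alternatives were a stricter score, lists as deposited, equal list lengths, other merging and overlap rules, all 4 Control lists, leaving out libraries, and a replicate block.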

Additional observations from a re-analysis of the deposited data

How the results depend on the processing

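The replicate numbers did not pair the libraries (correlations of replicate differences 0.01 to 0.09). With a replicate block the CHD7 differences were 2.72 (log2 odds ratio), 22.6 and -14.2 percentage points, -2.64 on chromosome 14 and 5.50 on chromosome 19, each with an exact permutation p of 0.125. In the CHD7 libraries without doxycycline they were 3.21, 28.8, -15.6, -2.67 and 5.53, each with an exact permutation p of 0.33, the smallest 2 against 2 allow. Requiring all 4 Control lists gave 929 CM-only and 423 Control-only sites, and 17 of the 20 named sites stayed in their set. The 3 that left it were CM-only. Under each of the other 10 settings 20 of 20 stayed. Most of those settings could not remove a high-ranked site with no peak on the other side, so 20 of 20 is no support. At equal RUNX1 list length there were 1015 CM-only and 933 Control-only sites.

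Leaving out 1 library at a time gave 1610 to 3187 CM-only and 999 to 1718 Control-only sites. The RUNX1 log2 odds ratio difference after doxycycline ranged from 2.33 to 5.38. For CHD7 it ranged from 1.76 to 2.85, the share at CM-only sites from 16.2 to 26.4 points and that at Control-only sites from -15.8 to -7.2. The CHD7 share of chromosome 14 ranged from -2.68 to -2.59 and that of chromosome 19 from 5.41 to 5.60. The RUNX1 peak number difference ranged from -0.04 to 0.23 and turned negative without CM -Dox replicate 2. The gene-end share difference ranged from -5.57 to 2.23 and turned positive without Control -Dox replicate 1. The doxycycline readout was not run with all 4 Control lists, because 2 of them would then choose the sites.

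Unknown depth limits all counts: a site missing from a list was not called at this depth, which does not show that it was unbound.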

Other observations

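At Pik3ap1, an adaptor of phosphoinositide 3-kinase signalling on chromosome 19, 3 CM-only sites stood beside 1 Control-only site, at chr19:41282819-41283056, which had no peak in CM -Dox and scored 20.8 and 16.7 in Control -Dox. Bcl2l1, which encodes the apoptosis inhibitor BCL-XL, also held 1 site of each kind. Its Control-only site was near the threshold, with scores of 11.8 and 10.2 in Control -Dox. Both CM +Dox libraries called that site with 16.1 and 17.2, and both Control +Dox libraries with 20.8 and 12.6. The Lck site was Control-only without doxycycline, yet both CM +Dox libraries and neither Control +Dox library called it.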
